A study of Mus musculus with 12 samples.

Results

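The genes described are the nuclear-encoded subunits of oxidative phosphorylation, the 4 proton- and electron-moving complexes of the mitochondrial respiratory chain and the ATP synthase that they drive. They were chosen by symbol from the array annotation (the Nduf a, b, c, s and v series, Sdha to Sdhd, symbols starting with Uqcr, Cyc1, the Cox4 to Cox8 subunits and symbols starting with Atp5), with no use of measured values. The rule found 85 of the 19494 genes with a named probe set, each read by 1 probe set. Complex I had 37 of them, complex II 4, complex III 9, complex IV 18 and complex V, the ATP synthase, 17. The subunits encoded by mitochondrial DNA were not analysed here.

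Expression was measured on 12 arrays of sorted mouse bone marrow cells, 3 in each of 4 groups. The groups were NFAT5-deficient haematopoietic stem cells (HSC), wild-type HSC, NFAT5-deficient multipotent progenitors (MPP) and wild-type MPP. NFAT5-deficient donors were Nfat5 fl/fl Vav-Cre mice and wild-type donors were Nfat5 +/+ Vav-Cre mice, so both genotypes carried the Cre, whose Vav promoter is active across blood cells. CD45.2 donor marrow had been placed into irradiated wild-type CD45.1 hosts, so the niche was wild-type in all 4 groups, and donor cells were sorted 13 weeks later. HSC were gated as CD48-CD150+ and MPP as CD48+CD150- within the LSK gate (Lin- Sca-1+ Kit+), and each array was hybridised with material amplified from 300 pg of total RNA. Values are log2 signals, so a difference of 1 is a doubling and signals of different probe sets are not compared as transcript levels.

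Electrons from NADH enter the chain at complex I and those from succinate at complex II, pass over ubiquinone to complex III and over cytochrome c to complex IV, where oxygen is reduced. The proton gradient built by complexes I, III and IV turns the ATP synthase. Quiescent HSC are known to lean on glycolysis and to hold their mitochondria at low activity, and respiration increases as they leave quiescence. NFAT5 belongs to the Rel family of transcription factors and drives osmoprotective genes when cells meet hypertonic conditions.

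Many genes of the respiratory chain carry recognition sequences of NRF1 and of ETS factors such as GABP in their proximal promoters. RefSeq promoter windows (GRCm38.p6) from 250 bases before to 50 bases after the transcription start were matched for 69 of the 85 members through their gene IDs. The letters searched on both strands were GCATGCGC for NRF1, CCGGAAG for ETS factors, TGACGTCA for the cAMP response element, AAGATGGCG for YY1, and the tonicity element TonE, the motif of NFAT5 itself. The promoters below are the 250 bases before the start of 4 members that the results return to, on the strand of the gene, with every motif match in capitals. All 4 hold a match, while 37 of the 69 members hold none of the 5 motifs. In MPP the genotype differences of Ndufa11 and Ndufb10 of complex I were -0.80 and 0.39, and Sdhb stands for complex II. Cox6a1 of complex IV was higher in HSC than in MPP by 0.56 in NFAT5-deficient donors, and its arrays overlapped in wild-type donors. None of these differences passed an adjusted p of 0.05.
Ndufa11, chr17:56717512-56717761, plus strand: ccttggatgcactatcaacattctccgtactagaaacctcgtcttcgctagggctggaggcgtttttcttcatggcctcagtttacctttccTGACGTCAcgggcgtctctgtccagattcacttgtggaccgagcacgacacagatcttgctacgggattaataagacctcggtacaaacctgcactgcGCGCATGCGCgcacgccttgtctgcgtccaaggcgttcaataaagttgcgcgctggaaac
Ndufb10, chr17:24724424-24724673, minus strand: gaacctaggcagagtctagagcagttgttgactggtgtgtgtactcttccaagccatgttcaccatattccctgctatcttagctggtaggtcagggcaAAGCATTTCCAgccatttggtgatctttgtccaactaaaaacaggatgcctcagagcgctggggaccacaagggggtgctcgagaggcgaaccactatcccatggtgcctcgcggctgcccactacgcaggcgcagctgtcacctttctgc
Sdhb, chr4:140961021-140961270, plus strand: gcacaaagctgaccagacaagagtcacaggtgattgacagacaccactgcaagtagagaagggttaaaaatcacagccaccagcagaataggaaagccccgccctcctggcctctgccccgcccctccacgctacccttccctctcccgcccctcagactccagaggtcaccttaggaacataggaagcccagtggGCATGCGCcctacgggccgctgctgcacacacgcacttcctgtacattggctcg
Cox6a1, chr5:115348959-115349208, minus strand: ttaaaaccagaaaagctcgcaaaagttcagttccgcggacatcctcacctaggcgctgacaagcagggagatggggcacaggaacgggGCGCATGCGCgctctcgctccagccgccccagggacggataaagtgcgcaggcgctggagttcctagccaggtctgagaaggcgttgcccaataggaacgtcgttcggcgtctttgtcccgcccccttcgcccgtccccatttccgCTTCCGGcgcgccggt
In Ndufa11 the capitals mark a cAMP response element 158 bases before the start and an NRF1 palindrome, read as 2 overlapping matches, 60 bases before it. In Ndufb10 they mark a TonE match 151 bases before the start. In Sdhb the capitals are a single NRF1 match 54 bases before the start. Cox6a1 has the same NRF1 palindrome 162 bases before the start and an ETS match, on the reverse strand, 16 bases before it. The ETS match of Sdhb lies after its start and is not in the printed stretch.

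Over all 69 windows, 17 members (24.6%) held an ETS match, against 9.9% of the 27025 genes with a window. An NRF1 match stood in 10 (14.5%), against 3.0% of genes, a YY1 match in 7 (10.1%), against 1.6%, and a cAMP response element in 4 (5.8%), against 2.0%. The TonE motif stood in 3 (4.3%: Ndufb10, Ndufs3 and Uqcrh), against 5.7% of genes. Among the 17492 protein-coding genes with a window, the shares were 12.9% for ETS, 3.9% for NRF1 and 2.1% for YY1. They were 2.5% for the cAMP response element and 5.0% for TonE. These shares describe letters in a window and were not tested, and base composition was not matched. Members with an ETS match had a median NFAT5-deficient minus wild-type difference of 0.078 in HSC and 0.0038 in MPP, and members without it had 0.053 and -0.057. For the 10 members with an NRF1 match the medians were 0.053 in HSC and 0.050 in MPP, beside 0.056 and -0.051 for the 59 without.

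Markers of the sorted populations separated the HSC arrays from the MPP arrays. The median deviation of 10 HSC marker genes from their means lay between 0.16 and 1.07 in NFAT5-deficient HSC and between 0.24 and 1.07 in wild-type HSC, and between -0.63 and -0.39 in NFAT5-deficient MPP and -0.90 and -0.69 in wild-type MPP. The Nfat5 probe set read 8.76, 8.34 and 7.62 in NFAT5-deficient HSC, against 9.81, 9.38 and 9.27 in wild-type HSC, and 7.63, 7.73 and 8.40 in NFAT5-deficient MPP, against 8.78, 8.85 and 8.12 in wild-type MPP. The Nfat5 difference was -1.25 (SE 0.35, limma adjusted p = 0.772) in HSC and -0.66 (SE 0.35, limma adjusted p = 0.896) in MPP, where the genotypes overlapped. Nfat5 itself therefore did not pass an adjusted p of 0.05 in either population. The position of that probe set relative to the floxed segment was not analysed here. Mature neutrophil markers (9 genes) averaged 5.42, 5.53 and 5.51 in NFAT5-deficient HSC, against 6.88, 7.38 and 5.52 in wild-type HSC. In MPP they averaged 6.49, 6.62 and 6.02 in NFAT5-deficient arrays, against 6.94, 7.02 and 5.96 in wild-type arrays. The median deviation of these 9 genes was -0.35, -0.46 and -0.40 in NFAT5-deficient HSC, against -0.021, 1.35 and -0.42 in wild-type HSC. It was -0.020, 0.28 and -0.30 in NFAT5-deficient MPP, against 0.18, 0.25 and -0.30 in wild-type MPP. Their part in the results below was not tested.

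By mean probe-set signal, which also depends on the probes, 80 of the 85 members lay at or above 6.51, the median of all probe sets, and 73 fell in the brightest of 4 equal classes of all genes. The 5 members below that median were Ndufa4l2, Cox4i2, Cox7a1, Cox7b2 and Cox8b, all of them isoforms known from muscle, lung, testis or hypoxic cells. In that brightest class the median within-group standard deviation (SD) was 0.23 for members, against 0.46 for all genes.

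By complex, the median within-group SD was 0.24 in complex I, 0.77 in complex II, 0.41 in complex III, 0.17 in complex IV and 0.17 in complex V. Uqcrh, the hinge protein of complex III, was the steadiest member, with 12.43 ± 0.08 in NFAT5-deficient HSC, 12.42 ± 0.04 in wild-type HSC, 12.40 ± 0.06 in NFAT5-deficient MPP and 12.45 ± 0.03 in wild-type MPP (SD, n = 3 each). Cox7c of complex IV and Atp5b, the catalytic beta subunit of the ATP synthase, followed, with pooled SDs of 0.075 and 0.094. Sdha, the flavoprotein of complex II, was the least steady at 1.10, followed by the membrane anchor Sdhd at 0.89 and the complex III core protein Uqcrc2 at 0.66. In wild-type HSC alone, Sdha read 9.55, 6.80 and 6.82.

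**Figure D1:**
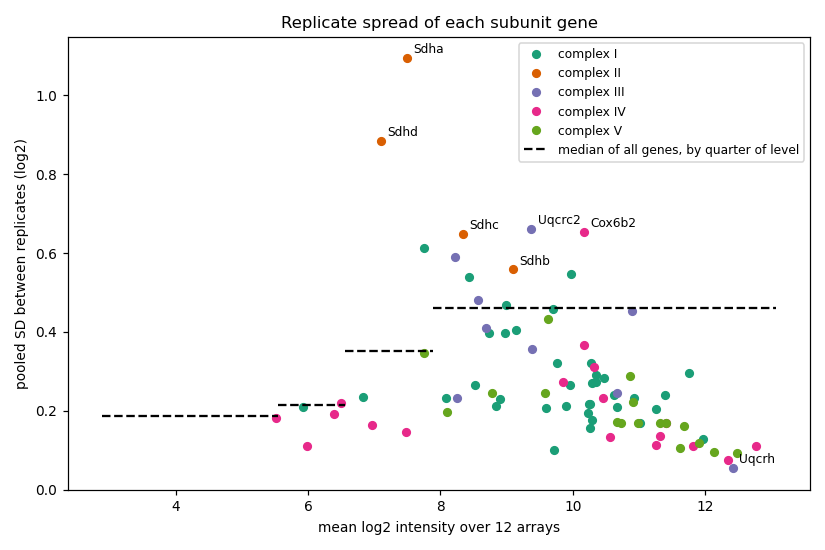
Pooled within-group standard deviation (log2 units) of each member against its mean log2 level over the 12 arrays, coloured by complex, with the median of all genes in each of 4 classes of level as dashed lines. Sdha lies highest at 1.10, while Uqcrh, Cox7c and Atp5b lie at the bottom right below 0.10.

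Summed over the 85 members, the groups lay close together. The median deviation of the members from their own means was -0.022, 0.025 and 0.0055 in the NFAT5-deficient HSC arrays, against 0.032, -0.086 and -0.091 in the wild-type HSC arrays. It was 0.031, -0.084 and 0.040 in the NFAT5-deficient MPP arrays, against 0.024, 0.11 and 0.063 in the wild-type MPP arrays. The genotypes overlapped in both populations, and in HSC the wild-type arrays spanned a wider range than the NFAT5-deficient ones. Over all genes the same measure ran between -0.089 and 0.067 across the 12 arrays. Fewer cells of a type and less RNA per cell cannot be told apart in such bulk samples.

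**Figure D2:**
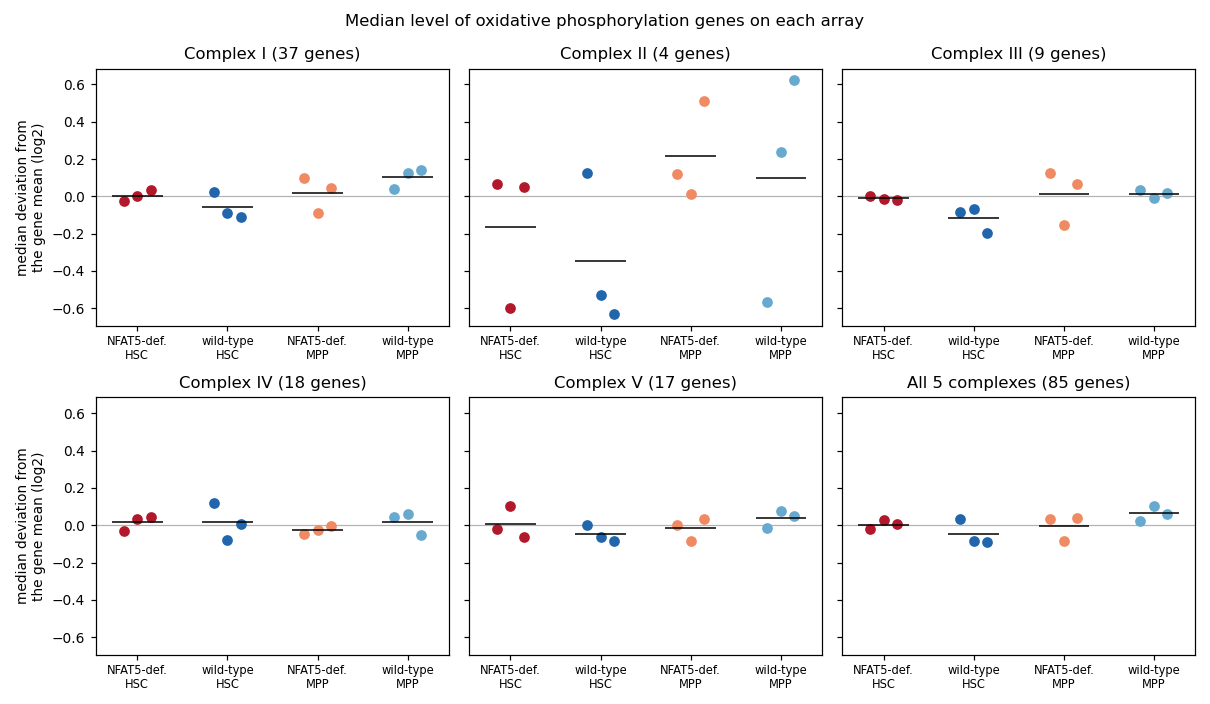
Median deviation (log2) of the members of each complex and of all 85 members from their means over the 12 arrays, with 1 point per array, the group mean as a bar and the groups side by side. The all-member points of the 12 arrays stay between -0.091 and 0.11, and complex II covers the widest range.

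The first question was whether loss of NFAT5 altered respiratory chain transcripts in HSC. With limma, fitted on all 19494 genes with Benjamini-Hochberg adjustment, no member passed an adjusted p of 0.05 (smallest 0.772), and 0% of all genes did. At an unadjusted p under 0.05, 6 members were higher in NFAT5-deficient HSC and 1 was lower, where 2.68% of all genes were higher and 3.5% lower. The 3 arrays of each genotype did not overlap for 8 members in the higher direction and 3 in the lower, against 3.55% and 6.61% of all genes. In the brightest class of 4874 genes, 259 were higher and 117 lower at that unadjusted p. Without overlap, 294 were higher there and 176 lower. The median difference of the members was 0.068, beside -0.048 for all genes and 0.066 for the brightest class of genes. Without wild-type HSC array 75 the members' median was 0.025. No label says that the arrays of a group came from separate animals, so p-values measure the spread between these samples, and their number limits the precision.

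Of the 7 members past an unadjusted p of 0.05 in HSC, 4 were of complex I, which holds 37 of the 85. Ndufb3, an accessory subunit of the membrane arm, read 9.35, 8.66 and 9.55 in NFAT5-deficient HSC, against 10.36, 10.40 and 9.81 in wild-type HSC. Every NFAT5-deficient array was below every wild-type one. The difference was -1.01 (SE 0.27, a fold of 0.497, limma adjusted p = 0.772).

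Ndufs6, a zinc-binding accessory subunit near the NADH-oxidising tip, went the other way. It read 10.40, 10.33 and 10.47 in NFAT5-deficient HSC, against 9.92, 10.02 and 9.51 in wild-type HSC. The genotypes did not overlap, and the wild-type HSC arrays were also below all 6 MPP arrays. Its difference was 0.58 (SE 0.16, limma adjusted p = 0.772). Ndufv1, the flavoprotein that binds NADH, read 9.76, 9.26 and 9.12 in NFAT5-deficient HSC, against 8.15, 8.88 and 8.37 in wild-type HSC. Here the NFAT5-deficient HSC arrays stood above the other 9 arrays, with a difference of 0.92 (SE 0.33, limma adjusted p = 0.779). Ndufa12, an accessory subunit related to the assembly factor Ndufaf2, read 10.51, 10.67 and 10.29 in NFAT5-deficient HSC, against 9.80, 9.81 and 10.23 in wild-type HSC. The genotypes were separate, by a narrow gap at wild-type array 75. Ndufs1, the large iron-sulphur subunit of the same arm, averaged 9.75 ± 0.28 in NFAT5-deficient HSC and 9.66 ± 0.75 in wild-type HSC (SD, n = 3 each) and overlapped.

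In complex III, 8 of the 9 members had higher means in NFAT5-deficient than in wild-type HSC, with a median difference of 0.26, and none passed the test. The median was 0.097 without wild-type HSC array 66 and NFAT5-deficient HSC array 70 together. Over all genes, 8117 of 19494 had higher means in NFAT5-deficient HSC, and in the brightest class 2806 of 4874 did. Uqcr11, a small accessory subunit, read 8.12, 9.61 and 9.29 in NFAT5-deficient HSC, against 8.44, 8.33 and 7.54 in wild-type HSC. NFAT5-deficient array 64 fell inside the wild-type range, and the difference of 0.91 had an SE of 0.38 (limma adjusted p = 0.792) and was 0.60 without NFAT5-deficient HSC array 70. The Rieske protein Uqcrfs1 differed by 0.23 (SE 0.24) and cytochrome c1, Cyc1, by 0.28 (SE 0.30). Uqcrh differed by 0.01, with a 95% interval from -0.11 to 0.13.

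In complex IV, the cytochrome c oxidase, the median difference in HSC was 0.036. Cox7a2, the widely expressed form of subunit 7a, read 10.31, 10.14 and 11.05 in NFAT5-deficient HSC, against 10.01, 9.88 and 9.68 in wild-type HSC. The wild-type HSC arrays were the lowest 3 of all 12, and the difference of 0.65 (SE 0.25, limma adjusted p = 0.779) was 0.37 without NFAT5-deficient HSC array 76. The core regulatory subunits were close between genotypes: Cox4i1 differed by 0.20 (SE 0.14), Cox5a by 0.13 (SE 0.14) and Cox5b by -0.04 (SE 0.11).

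In the ATP synthase the median difference in HSC was 0.015. Atp5j2, subunit f of the membrane part, read 11.69, 11.82 and 11.71 in NFAT5-deficient HSC, against 11.34, 11.47 and 11.49 in wild-type HSC. The genotypes did not overlap, with a difference of 0.31 (SE 0.10, limma adjusted p = 0.779). Atp5g1, Atp5g2 and Atp5g3 encode the same mature c-ring protein from separate genes. Atp5g1 read 8.18, 8.50 and 8.60 in NFAT5-deficient HSC, against 9.07, 9.17 and 8.62 in wild-type HSC, a narrow separation with a difference of -0.53 (SE 0.24, limma adjusted p = 0.810). Atp5g2 differed by 0.31 (SE 0.18) and Atp5g3 by -0.17 (SE 0.22), so the 3 genes did not share a direction. The catalytic subunits Atp5a1 and Atp5b differed by 0.14 (SE 0.13) and 0.05 (SE 0.08).

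**Figure D3:**
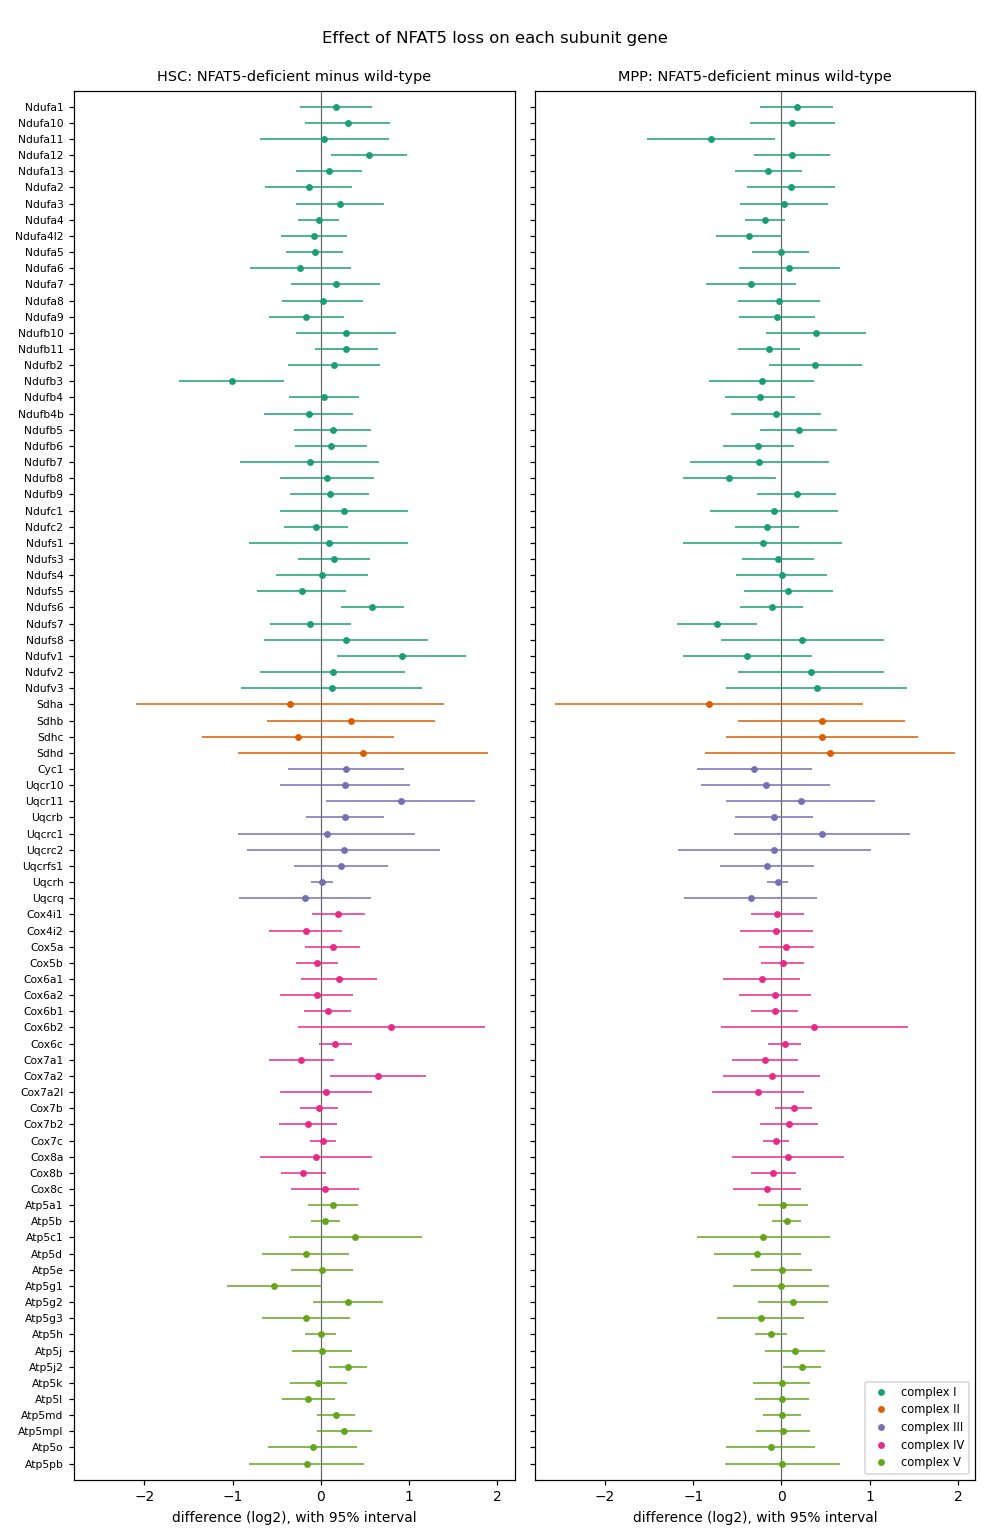
NFAT5-deficient minus wild-type difference (log2) with its 95% interval for the 85 members, in HSC and in MPP, ordered by complex. Ndufb3 at -1.01 and Ndufv1 at 0.92 are the ends of the HSC panel, and Sdha has the widest interval.

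In MPP the same comparison again called no member with limma (smallest adjusted p 0.871), while 0.00513% of all genes, 1 gene, passed. Before adjustment, at p under 0.05, 1 member was higher in NFAT5-deficient MPP and 3 were lower, beside 1.76% and 3.59% of all genes. Arrays of the genotypes did not overlap for 1 member in the higher and 5 in the lower direction, beside 3.8% and 8.84% of all genes. Of the 4874 genes of the brightest class, 128 were higher and 64 lower at that unadjusted p. Without overlap, 346 were higher there and 213 lower. The members' median was -0.041, beside -0.065 for all genes and 0.046 for the brightest class.

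The 3 members with the lower values were all of complex I. Ndufs7, the iron-sulphur subunit next to the quinone site, read 6.38, 6.82 and 6.41 in NFAT5-deficient MPP, against 7.58, 6.92 and 7.29 in wild-type MPP. The groups were separate by a narrow step, and the difference was -0.73 (SE 0.21, limma adjusted p = 0.871). Ndufb8, a membrane arm subunit, read 7.72, 8.47 and 8.04 in NFAT5-deficient MPP, against 8.67, 8.85 and 8.48 in wild-type MPP. Its difference was -0.59 (SE 0.24, limma adjusted p = 0.896), and the nearest arrays of the genotypes almost touched. Ndufa11, whose promoter is shown above with the NRF1 palindrome, read 9.09, 8.04 and 9.45 in NFAT5-deficient MPP, against 9.38, 9.73 and 9.87 in wild-type MPP. The genotypes overlapped, NFAT5-deficient array 70 was far below the rest, and the difference of -0.80 (SE 0.33) was -0.39 without that array.

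With Atp5j2, the membrane arm subunits Ndufb10 and Ndufb2 had the largest positive moderated t statistics among the members in MPP, and neither of these subunits passed an unadjusted p of 0.05. Ndufb10, which has a TonE match, read 10.37, 10.52 and 10.28 in NFAT5-deficient MPP, against 10.21, 9.83 and 9.98 in wild-type MPP. The genotypes were separate, with a difference of 0.39 (SE 0.26, limma adjusted p = 0.899). Ndufb2 differed by 0.39 (SE 0.24) with overlapping arrays, and by 0.20 without wild-type MPP array 67. In HSC the Ndufb10 difference was 0.28 (SE 0.26), and the other members with TonE, Ndufs3 and Uqcrh, showed no call either. The median genotype difference of the 3 members with TonE was 0.14 in HSC and -0.035 in MPP.

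The complex II median in MPP was 0.46, and it was -0.014 without NFAT5-deficient MPP array 76. Sdhb, the iron-sulphur subunit, read 9.04, 9.48 and 9.17 in NFAT5-deficient MPP, against 8.59, 8.43 and 9.30 in wild-type MPP, a difference of 0.46 (SE 0.43) with overlap. Sdhc and Sdhd, the membrane anchors, differed by 0.46 (SE 0.49) and 0.55 (SE 0.64), and Sdha by -0.82 (SE 0.79). The Sdhd difference was -0.26 without that array. Leaving out single wild-type MPP arrays moved the Sdhb difference to between 0.28 (array 67) and 0.72 (array 75). For Sdha the same step gave between -1.42 (array 66) and -0.38 (array 75). The Sdhc difference was 0.077 without NFAT5-deficient MPP array 64 and 1.05 without NFAT5-deficient MPP array 70. The 95% intervals of all 4 ran beyond 1 log2 unit in at least 1 direction in HSC and in MPP.

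Atp5j2 was the only member past an unadjusted p of 0.05 in both populations. In MPP it read 11.88, 11.81 and 11.61 in NFAT5-deficient arrays, against 11.43, 11.50 and 11.66 in wild-type arrays, which overlapped, and differed by 0.23 (SE 0.10, limma adjusted p = 0.896). Averaged over HSC and MPP its difference was 0.27 (SE 0.07, a fold of 1.21, limma adjusted p = 0.622).

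For that average over both populations, limma called no member (smallest adjusted p 0.622) and 0% of all genes. At an unadjusted p under 0.05, 2 members were higher in NFAT5-deficient cells (Ndufa12 and Atp5j2) and 2 lower (Ndufb3 and Ndufs7), beside 2.48% and 4.63% of all genes. In the brightest class of 4874 genes, 222 were higher and 72 lower at that unadjusted p. The median of the members was 0.0006, beside -0.057 for all genes and 0.059 for the brightest class. For 79 of the 85 members the 95% interval of this difference lay within 1 log2 unit of 0, and for 53 within 0.5. These intervals count the HSC and MPP arrays of the same sample number as independent, which was not settled.

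Whether NFAT5 loss acted differently in HSC and in MPP was asked with the interaction term. No member passed (smallest limma adjusted p 0.9995), nor did any other gene (0%). Before adjustment, at p under 0.05, 2 members had a more positive genotype difference in HSC and 0 a more negative one, beside 2.24% and 1.95% of all genes. They were Ndufv1, with 0.92 in HSC and -0.39 in MPP, and Ndufs6, with 0.58 in HSC and -0.11 in MPP. Their interaction terms were 1.30 (SE 0.47) and 0.69 (SE 0.23). The members' median term was 0.11 and that of all genes 0.023. At an unadjusted p under 0.05, 125 of 4874 genes of the brightest class had a more positive term and 121 a more negative.

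**Figure D4:**
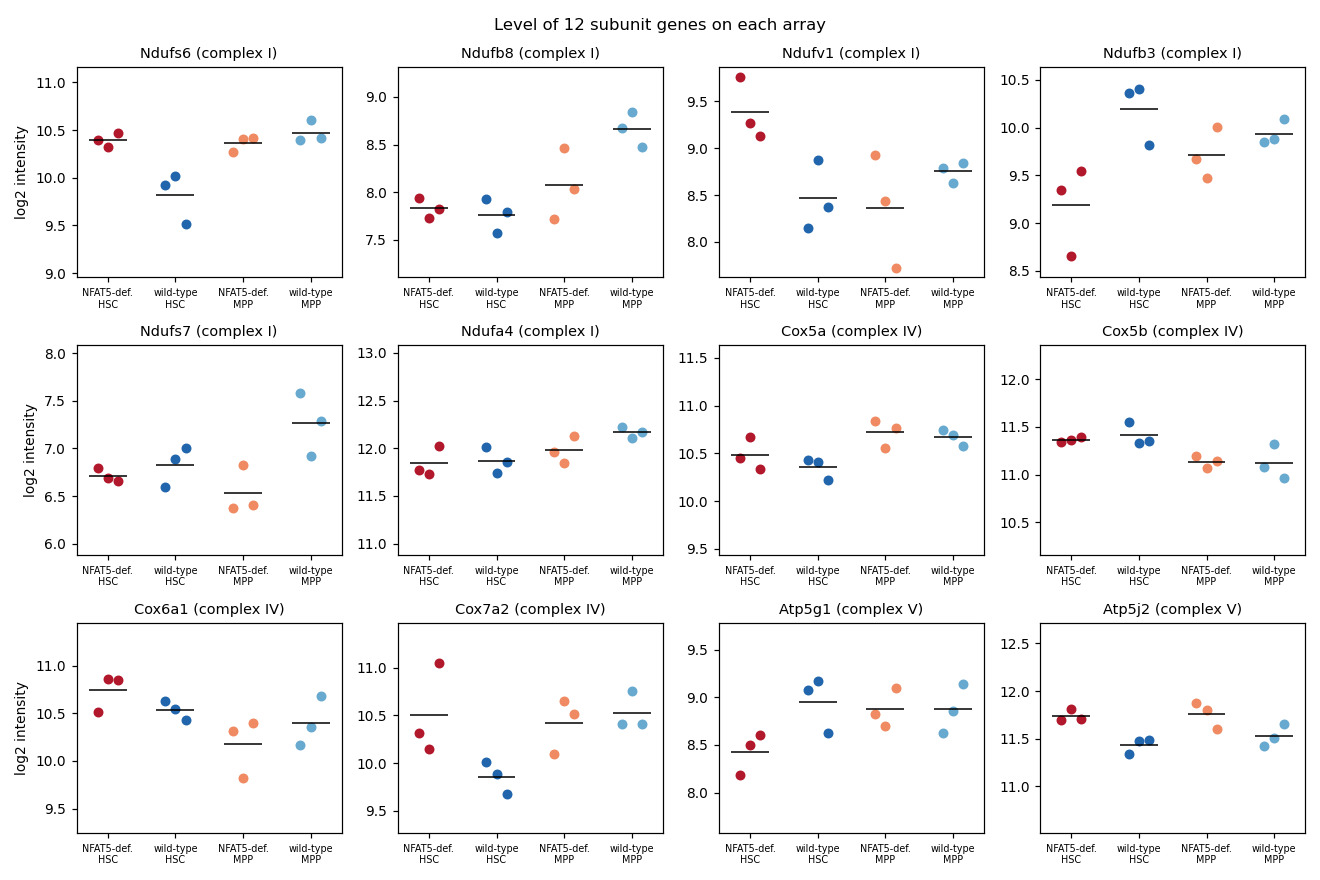
Log2 level on every array for 12 named members, with the group mean as a bar, each panel with its own axis. Ndufs6 and Cox7a2 are low in the 3 wild-type HSC arrays, Ndufv1 is high in the 3 NFAT5-deficient HSC arrays, and Cox5b is higher in all 6 HSC arrays than in any MPP array.

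The second axis of the design sets HSC against MPP within a genotype. These comparisons use the same arrays as the genotype comparisons, so a member that is low in wild-type HSC appears in both. The genes of the proteins used in the sort separated the populations. Averaged over genotypes, Slamf1, which encodes CD150, was higher in HSC than in MPP by 3.60 (limma adjusted p = 0.000155). Cd48 was lower, with a difference of -3.61 (limma adjusted p = 0.00417). Within wild-type donors the Cd48 difference was -3.43 (limma adjusted p = 0.0748), and within NFAT5-deficient donors it was -3.78 (limma adjusted p = 0.0474).

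In wild-type donors no member passed limma's adjusted p of 0.05 (smallest 0.244), and 0.164% of all genes did. At an unadjusted p under 0.05, 1 member was higher in HSC than in MPP and 7 were lower, beside 4.96% and 3.93% of all genes. Arrays did not overlap for 2 members in the higher and 9 in the lower direction, beside 7.54% and 4.74% of all genes. Of the 4874 genes of the brightest class, 168 were higher and 397 lower at that unadjusted p. Without overlap, 217 were higher there and 420 lower. The members' median difference was -0.085, and it ran from -0.14 without wild-type MPP array 66 to -0.033 without wild-type HSC array 67. All genes had a median of 0.052 and the brightest class -0.065.

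Ndufb8 read 7.93, 7.57 and 7.79 in wild-type HSC, against 8.67, 8.85 and 8.48 in wild-type MPP. All HSC arrays were well below all MPP arrays, with a difference of -0.90 (SE 0.24, a fold of 0.535, limma adjusted p = 0.276). Ndufs6 differed by -0.65 (SE 0.16, limma adjusted p = 0.244) and Cox7a2 by -0.67 (SE 0.25, limma adjusted p = 0.472), both through the wild-type HSC arrays named above. Ndufa4, which carries a complex I name but has been assigned to complex IV, read 12.01, 11.74 and 11.85 in wild-type HSC, against 12.22, 12.10 and 12.17 in wild-type MPP. Its groups were separate by a small step and differed by -0.30 (SE 0.10, limma adjusted p = 0.430). Cox5a differed by -0.32 (SE 0.14) and Cox6c by -0.19 (SE 0.08), each with separate arrays. For Cox6c the step was very narrow, from 12.77 in wild-type HSC to 12.78 in wild-type MPP. The Cox6c difference was -0.091 without wild-type HSC array 66.

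In NFAT5-deficient donors no member passed either (smallest limma adjusted p 0.454), and 0.21% of all genes did. At an unadjusted p under 0.05, 2 members were higher in HSC than in MPP and 0 lower, beside 4.95% and 2.95% of all genes. Arrays did not overlap for 7 members in the higher and 5 in the lower direction, beside 11.5% and 5.39% of all genes. In the brightest class of 4874 genes, 134 were higher and 259 lower at that unadjusted p. Without overlap, 311 were higher there and 530 lower. The members' median was 0.011, beside 0.075 for all genes and -0.063 for the brightest class. With each array centred on its own median, the members' median was -0.052 and that of all genes 0.012.

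The 2 members were Ndufv1 and Cox6a1. Ndufv1 read 9.76, 9.26 and 9.12 in NFAT5-deficient HSC, against 8.93, 8.44 and 7.73 in NFAT5-deficient MPP, a difference of 1.02 (SE 0.33, a fold of 2.02, limma adjusted p = 0.454). Cox6a1, the widely expressed form of subunit 6a, read 10.51, 10.86 and 10.85 in NFAT5-deficient HSC, against 10.31, 9.82 and 10.40 in NFAT5-deficient MPP. Its groups were separate and differed by 0.56 (SE 0.20, limma adjusted p = 0.483). In wild-type donors Cox6a1 differed by 0.13 (SE 0.20) and overlapped.

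Averaged over both genotypes, limma called no member (smallest adjusted p 0.218), while 0.61% of all genes passed. Before adjustment, at p under 0.05, 3 members were higher in HSC than in MPP (Cox5b, Cox6a1 and Cox8b) and 4 lower (Ndufb8, Ndufa4, Ndufs6 and Cox5a), beside 7.44% and 4.71% of all genes. Of the 4874 genes of the brightest class, 198 were higher and 470 lower at that unadjusted p. The median of the members was -0.044, beside 0.063 for all genes and -0.065 for the brightest class. Cox5b and Cox5a, which both belong to the ring of nuclear subunits around the catalytic core, had opposite directions. Cox5b read 11.35, 11.36 and 11.39 in NFAT5-deficient HSC and 11.55, 11.33 and 11.35 in wild-type HSC, against 11.19, 11.07 and 11.14 in NFAT5-deficient MPP and 11.08, 11.32 and 10.96 in wild-type MPP. Every HSC array was above every MPP array, by a very narrow step, and the difference was 0.26 (SE 0.08, a fold of 1.20, limma adjusted p = 0.222). Cox5a had a difference of -0.28 (SE 0.10, limma adjusted p = 0.313) with overlap, and Ndufb8 of -0.57 (SE 0.17, limma adjusted p = 0.218).

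**Figure D5:**
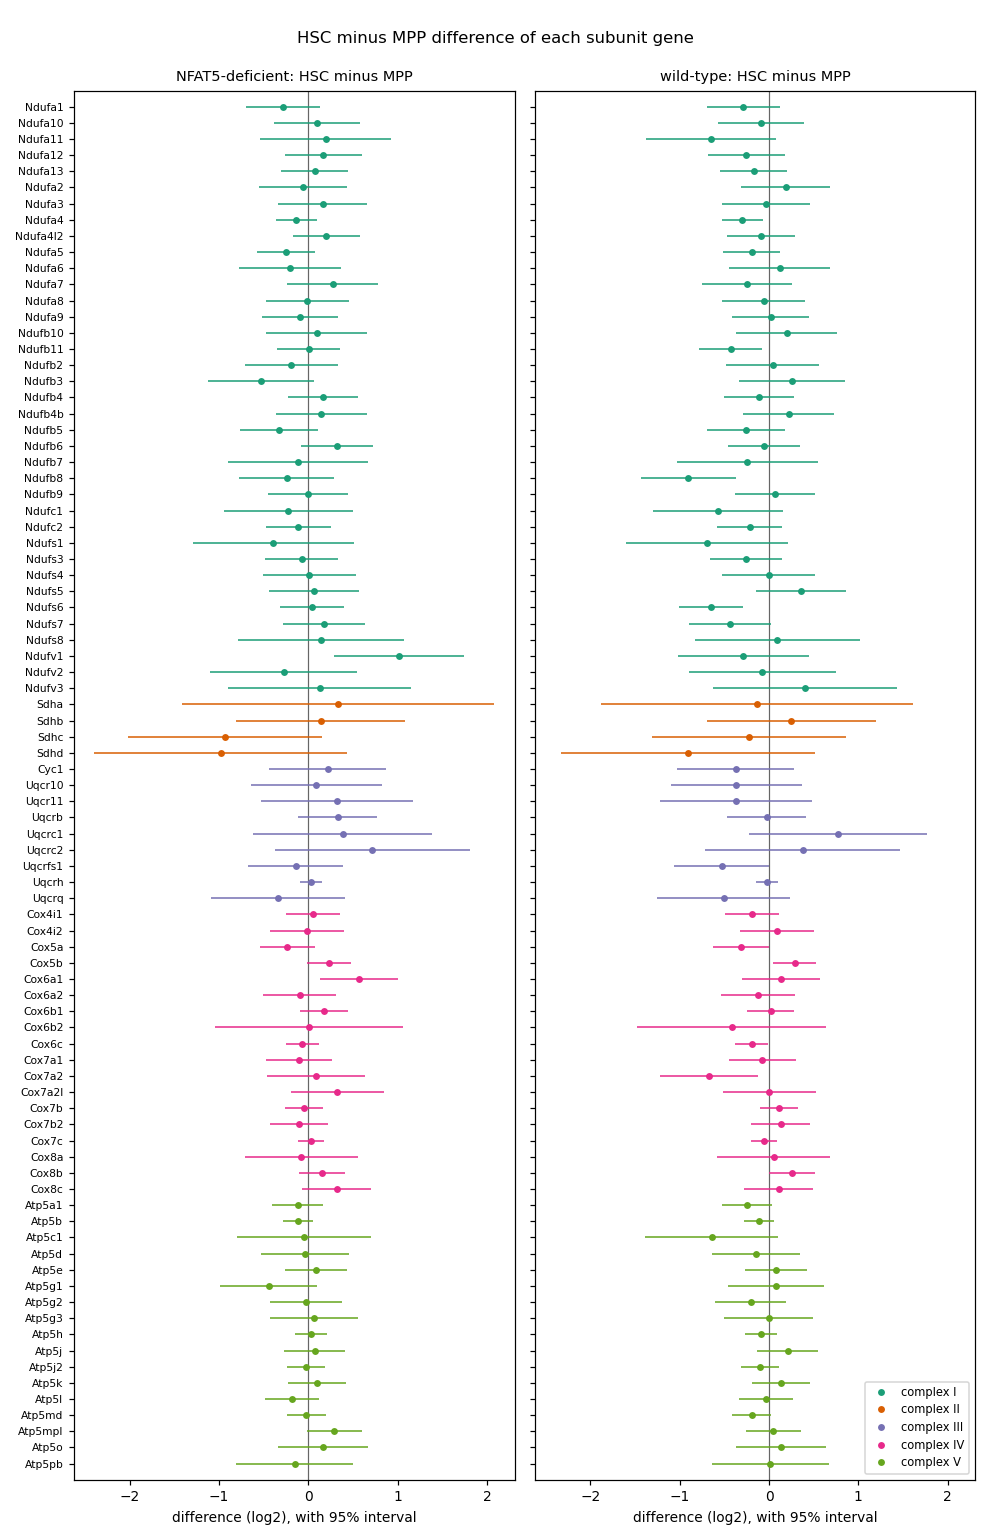
HSC minus MPP difference (log2) with its 95% interval for the 85 members, in NFAT5-deficient and in wild-type donors, ordered by complex. Ndufv1 stands at 1.02 in NFAT5-deficient donors and at -0.29 in wild-type donors, and Ndufb8 at -0.24 in NFAT5-deficient donors and -0.90 in wild-type donors.

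Of the isoforms known mainly from other tissues, Cox4i2, Cox7a1, Cox7b2, Cox8b and Ndufa4l2 had signals below the median of all probe sets. Cox4i2, the lung form, averaged 6.43 ± 0.07 in NFAT5-deficient HSC, 6.60 ± 0.21 in wild-type HSC, 6.45 ± 0.15 in NFAT5-deficient MPP and 6.51 ± 0.35 in wild-type MPP (SD, n = 3 each). The muscle forms Cox7a1 and Cox8b and the testis form Cox7b2 had group means between 5.45 and 6.54. Cox6b2, known from testis, had a signal above that median, with 10.91, 10.46 and 10.02 in NFAT5-deficient HSC, against 9.04, 9.02 and 10.94 in wild-type HSC. The genotypes overlapped. Cox6a2 and Cox8c, also counted as tissue-restricted here, lay above that median too, with means of 7.48 and 6.96 over the 12 arrays. Ndufa4l2, which is induced through HIF and lowers complex I activity, averaged 5.71 ± 0.22 in NFAT5-deficient MPP and 6.08 ± 0.27 in wild-type MPP (SD, n = 3 each). Atpif1, the inhibitor of the ATP synthase and no member of the list, differed by 0.08 (SE 0.13) in HSC and 0.12 (SE 0.13) in MPP between NFAT5-deficient and wild-type arrays.

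The genes around the chain gave a single call. Of 45 assembly factors, 14 electron carrier genes, 16 genes of the tricarboxylic acid cycle, 15 regulators of mitochondrial biogenesis, 10 genes of oxygen sensing and fuel choice and 6 nucleotide, phosphate and anion carriers, none passed in a genotype comparison or in the interaction. Idh2, the mitochondrial NADP-dependent isocitrate dehydrogenase, fell in HSC relative to MPP when the genotypes were averaged. It averaged 9.79 ± 0.23 in NFAT5-deficient HSC, against 10.49 ± 0.14 in NFAT5-deficient MPP, and 9.68 ± 0.27 in wild-type HSC, against 10.58 ± 0.32 in wild-type MPP (SD, n = 3 each). The difference was -0.81 (SE 0.15, limma adjusted p = 0.0477). The call was narrow: with limma the adjusted p ran from 0.0333 to 0.161 over the other settings, and leaving out any array other than wild-type HSC array 67 or wild-type MPP array 66 ended it. Over the arrays left out in turn the difference lay between -0.89 and -0.73, and the other settings brought it to between -0.86 and -0.71. The cycle genes had a median HSC minus MPP difference of -0.24, with 12 of 16 lower in HSC and 1 past the test, and the assembly factors one of -0.18, with 28 of 45 lower. Over all genes 36.6% were lower in HSC in that average and 0.61% passed the test, and in the brightest class 58.5% were lower. Cytosolic ribosomal protein genes (63) had a median of -0.0046.

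Among the other unadjusted differences, Polg2, a subunit of the mitochondrial DNA polymerase, was higher in NFAT5-deficient than in wild-type HSC by 1.09 (SE 0.27, limma adjusted p = 0.772). Ppargc1a, the coactivator of mitochondrial biogenesis, differed by 0.80 (SE 0.37) in HSC and 0.92 (SE 0.37) in MPP between the genotypes. With single arrays left out, it ran from 0.58 to 1.19 in HSC and from 0.67 to 1.33 in MPP. The Ppargc1a group means, 5.59 in wild-type MPP to 6.51 in NFAT5-deficient MPP, all lay below the median of all probe sets. Ppargc1b, its relative, differed by -0.53 (SE 0.17) in HSC. The oxygen sensor Egln3 differed by -1.82 (SE 0.51, limma adjusted p = 0.192) between HSC and MPP. None of these 4 passed the test. In HSC, 7 of the 15 biogenesis regulators had higher means in NFAT5-deficient arrays and 8 lower, with a median difference of -0.025. Of the 45 assembly factors, 24 were higher and 21 lower, with Ndufaf3 at -1.37 (SE 0.40) and Surf1 at 1.26 (SE 0.45).

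The values limit what could be seen. For 26 members in HSC and 29 in MPP the 95% interval of the genotype difference lay within 0.5 log2 units of 0, and for 69 in HSC and 67 in MPP within 1. The intervals were narrow for Atp5b (-0.12 to 0.22 in HSC and -0.11 to 0.23 in MPP) and Cox7c (-0.12 to 0.17 in HSC and -0.21 to 0.08 in MPP). Probe sequences were not used here, so members with near-identical copies, such as the Atp5g genes and those with processed pseudogenes, may share signal.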

How the data were processed

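Total RNA of sorted HSC and MPP was profiled on 12 single-colour arrays, 3 per group, with groups taken from the sample labels. The authors deposited log2 expression values per probe set, and RMA and limma are listed, with no role, per the submitters' processing notes. The array's background correction, genome build and detection calls are not stated there or in the labels. Scan dates were not used here, so batches were not tested. The values ran between 2.51 and 13.28, array medians between 6.40 and 6.53, and arrays of a group correlated at 0.90 to 0.95.

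Of 22142 probe sets, 19527 had 1 symbol, 0 several and 2615 none. For 33 genes with more than 1 probe set, none of them a member, the brightest was kept, giving 19494 genes. All 85 members matched the RefSeq gene table by gene ID, and 69 had a promoter window. limma 3.58.1 in R 4.3.3 fitted 4 group means on all genes (lmFit, eBayes with an intensity trend, Benjamini-Hochberg over all genes of a comparison, called at an adjusted p under 0.05), after a check on simulated data. Figures used matplotlib 3.10.9 in Python 3.11.15. Exact tests of 3 arrays against 3 cannot go below 0.1 and were not used.

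Members were named where they passed the test, where they had the 3 largest positive or negative moderated t statistics of a comparison, by a role and isoform list, and by the largest and smallest spread. The members, gene lists and tests were chosen with earlier results of these data known. Sample numbers in the titles recur in HSC and MPP. Deviations of same-numbered arrays correlated at -0.014 to 0.064 over all genes, and the numbers were not treated as pairs. The neutrophil marker S100a8 read 9.62, 8.99 and 4.47 in wild-type HSC arrays 66, 67 and 75, and 9.28, 9.15 and 5.22 in wild-type MPP. In NFAT5-deficient arrays 64, 70 and 76 it read 4.22, 6.43 and 5.405 in HSC and 8.26, 8.35 and 6.71 in MPP. A shared source was not tested, and the main fits count same-numbered arrays as independent. Alternatives were a dim-gene filter, eBayes without the trend or robust, fits of only the groups compared, centring, quantile normalization, array weights, means of probe sets, the sample number as a block, a looser threshold, leaving out arrays and leaving out tissue-restricted isoforms.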

Additional observations from a re-analysis of the deposited data

How the results depend on the processing

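No member was called under any of the 25 settings run besides the one reported, and among the members examined Sdhd alone reversed, in MPP, where its genotype difference ran from -0.26 without NFAT5-deficient array 76 to 1.18 without array 64. The call of Idh2, no member, was lost under 13 of 24 settings, among them the fixed replicate block (limma adjusted p = 0.152) and robust eBayes (0.0502). The number of all genes called did move. For NFAT5-deficient minus wild-type MPP (1 gene) it was 0 with the dim-gene filter, 0 with only the groups compared, 0 without wild-type HSC array 66 and NFAT5-deficient HSC array 70 together, 3 with centring, 2 with quantile normalization, 6 with array weights and 7 at an adjusted p under 0.1. For the interaction (0 genes) it was 1 with the dim-gene filter, 1 with the sample number as a random replicate block (correlation 0.045) and 1 at an adjusted p under 0.1. For NFAT5-deficient HSC minus MPP (41 genes) it was 23 with robust eBayes, 12 with only the groups compared and 24 with quantile normalization. It was 3 with the sample number as a fixed replicate block, 62 at an adjusted p under 0.1 and 23 without the 2 arrays. With centring, the members' median in that comparison went from 0.011 to -0.052 and that of all genes from 0.075 to 0.012. For wild-type HSC minus MPP (32 genes) the number called was 9 with only the groups compared and 5 with the fixed block. It was 72 at the looser threshold and 18 without the 2 arrays. For HSC minus MPP averaged over genotypes (119 genes) it was 52 with the fixed block, 218 at the looser threshold and 79 without the 2 arrays. The causes were not tested.

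Leaving out each array in turn gave these ranges of all genes called: 0 to 3 for the genotypes in HSC, 0 to 4 in MPP, 0 to 2 averaged, 0 to 1 for the interaction, 5 to 32 for HSC minus MPP in NFAT5-deficient donors, 11 to 30 in wild-type donors and 71 to 112 averaged. The members' medians then ran from 0.025 to 0.091, -0.064 to 0.0009, -0.021 to 0.034, 0.071 to 0.14, -0.0096 to 0.039, -0.14 to -0.033 and -0.068 to -0.024 in the same order. The block changed no call of a member and ended that of Idh2. Whether the numbers are pairs was not settled, so its lost calls say nothing about the size of an effect. With 3 arrays a group, the median half-width of a member's 95% interval was 0.46 log2 units.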
